A study of Mus musculus with 8 samples.

Results

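The erythroid genes of newborn mouse liver were followed in 31 genes chosen by symbol, in 4 classes: 7 transcription factors, 12 proteins of the red cell membrane and its skeleton, 2 receptors and 10 genes of late red cell maturation. Each gene was read from 1 probe set, the one with the highest mean signal over the 8 arrays. Of the 31 genes, 28 had a probe set paired with that gene alone, and all 28 passed the signal minimum of 200 on at least 4 arrays, the lowest single value being 438.4 for Gfi1b. They were 28 of 18193 genes with such a probe set and of 10878 genes that passed the minimum. No probe set was paired with Ahsp or Trim58, and the probe sets of Bnip3l were shared with a second gene, so these 3 genes were not analysed here.

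Livers came from inbred C57BL/6J pups, labelled male, at day of life 3. The 4 control animals were age-matched wild-type littermates, and the other 4 pups carried a targeted disruption of the glycerol kinase gene. RNA of each liver was hybridised singly to an Affymetrix Mouse 430 2.0 array, which reads each transcript with 1 or more sets of short probes. The labels name no further treatment, allele, litter or processing batch, and do not say what separates replicate numbers 1 and 2 from 3 and 4. No probe set was paired with the symbol Gk, so the level of the disrupted gene was not analysed here.

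Median signal lay between 147 and 175 on the 8 arrays, and 42.6% to 46.7% of probe sets reached 200. The array labelled wild type 4 stood apart: its Xist signal, from a transcript made in female cells, was 10506 against 196 to 396 elsewhere, and its signal for the Y-linked gene Eif2s3y was 1.3 against 685 to 1164. The labels call this animal male. Replicates 1 and 2 also differed from 3 and 4 in control probe sets. The split was known from such controls in earlier results, those of the transferrin receptor among them, so their values are not separate evidence for it. The ratio of the 3' to the 5' control of the transferrin receptor was 6.50 to 6.72 on the 4 arrays of replicates 1 and 2. It was 4.21 to 4.83 on the other 4. The same ratio for pyruvate carboxylase, often read as a sign of transcript length in the labelled RNA, was 7.03 on knockout 1, 4.93 on knockout 2, and 2.06 to 3.46 on the other 6 arrays. Each group held 4 arrays, and that number limits the precision of every difference below.

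Red blood cells are made in the fetal liver before the bone marrow takes over, and islands of erythroblasts remain among the hepatocytes in the first days after birth. Erythropoietin keeps committed progenitors alive, and the transcription factors GATA1 and KLF1 then switch on the genes of hemoglobin, iron uptake and the red cell membrane. In the last steps the cell stops dividing, assembles a spectrin skeleton under its membrane, condenses its nucleus and expels it. In RNA of whole liver, fewer erythroid cells and less RNA per erythroid cell cannot be told apart.

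Promoter sequence is shown for 4 genes, to set genes that were low on knockout 1 (Klf1, Epb42 and Rhd) beside a gene that was highest there (Mkrn1). The choice of these genes was made with their values in view. Each window is 300 bases long, from 250 bases before to 50 bases after a RefSeq start site in the mouse build GRCm38.p6, written 5′ to 3′ on the strand of the gene. The windows lie at chr8:84901732-84902031 on the plus strand for Klf1, chr2:121036828-121037127 on the minus strand for Epb42, chr4:134864286-134864585 on the plus strand for Rhd, and chr6:39419727-39420026 on the minus strand for Mkrn1. Capitals mark matches, on either strand, to AGATAA or TGATAA, letters that GATA factors are known to bind, and to CCNCNCCC, letters that KLF1 is known to bind.
Klf1: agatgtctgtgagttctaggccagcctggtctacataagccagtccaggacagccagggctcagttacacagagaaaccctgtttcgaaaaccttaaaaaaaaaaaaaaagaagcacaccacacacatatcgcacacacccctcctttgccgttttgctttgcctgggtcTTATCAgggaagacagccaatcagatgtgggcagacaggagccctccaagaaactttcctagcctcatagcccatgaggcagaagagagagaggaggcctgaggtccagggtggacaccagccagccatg
Epb42: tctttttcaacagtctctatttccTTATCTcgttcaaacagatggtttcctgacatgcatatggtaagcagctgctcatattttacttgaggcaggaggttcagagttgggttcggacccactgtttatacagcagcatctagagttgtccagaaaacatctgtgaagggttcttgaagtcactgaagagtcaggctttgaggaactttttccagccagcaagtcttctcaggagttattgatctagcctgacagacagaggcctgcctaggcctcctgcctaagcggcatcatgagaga
Rhd: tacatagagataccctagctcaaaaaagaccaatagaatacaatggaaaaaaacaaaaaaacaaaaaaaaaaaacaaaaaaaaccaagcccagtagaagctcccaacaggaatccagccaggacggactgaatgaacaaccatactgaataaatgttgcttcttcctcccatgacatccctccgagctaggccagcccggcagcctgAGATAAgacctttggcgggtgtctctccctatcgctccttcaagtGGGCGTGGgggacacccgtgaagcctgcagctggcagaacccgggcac
Mkrn1: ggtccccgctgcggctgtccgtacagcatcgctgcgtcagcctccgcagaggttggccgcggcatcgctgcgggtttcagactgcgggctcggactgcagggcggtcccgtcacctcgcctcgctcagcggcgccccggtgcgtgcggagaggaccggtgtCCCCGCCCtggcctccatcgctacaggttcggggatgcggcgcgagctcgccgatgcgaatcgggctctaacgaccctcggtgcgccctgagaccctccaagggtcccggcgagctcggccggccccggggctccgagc

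In these windows the GATA letters stood 80 bases before the start of Klf1 and 226 bases before that of Epb42, both on the other strand. In Rhd they stood 43 bases before the start on the gene's own strand, beside a CCNCNCCC match 2 bases after the start on the other strand. The Mkrn1 window held no AGATAA or TGATAA and 1 CCNCNCCC match, 89 bases before the start. A second Mkrn1 promoter, not printed, held 2 CCNCNCCC matches and no GATA letters. Other genes did not all follow the printed contrast. Of those also lowest on knockout 1, Tal1, Gfi1b, Kel, Icam4, Ermap, Epor and Trim10 had GATA letters, Tal1 in only 1 of its promoters. Gata1, Sptb, Add2, Tmod1 and Zfpm1 had none. Ank1 and Cldn13, lowest there too, had no promoter in the sequence table. Tmcc2, also highest on knockout 1, had AGATAA in 1 of its promoters. The sequence table held 27 promoters for 22 of the 28 measured genes. AGATAA or TGATAA was present in 13 of these 27 promoters (48.1%), against 18.6% of all 32851 promoters of that length. CCNCNCCC was present in 19 of the 27 (70.4%), against 49.5% of all promoters, and both kinds in 6 (22.2%), against 5.73%. CCNCNCCC and the GATA letters share no overlap in the matches printed here, and a match describes letters, not binding.

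The first comparison asked whether erythroid transcripts differed between knockout and wild-type livers. None of the 28 genes passed the test between knockout and wild type, while 0.299% of the 20395 tested probe sets did (limma, Benjamini-Hochberg adjusted p under 0.05). Adjusted p-values of the 28 ran from 0.336 to 0.948, and 1 gene, Tmod1, had an unadjusted p under 0.05, against 14.4% of all tested probe sets. Estimates were below 0 for 23 of 28 genes, against 54.2% of all probe sets, with a median log2 difference of -0.17, against -0.03 over all. Zfpm1, Rhag, Bpgm, Tmcc2 and Mkrn1 had estimates above 0, against 45.8% of all probe sets. In no gene did the 4 knockout arrays lie wholly on 1 side of the 4 wild-type arrays, against 9.32% of all probe sets. The half-width of the 95% interval of a difference had a median of 0.51 on the log2 scale, so shifts of the size of most estimates were not detectable with these arrays. In simulated data built on these arrays, 4.5% of probe sets changed 1.5-fold were recovered and 85% of those changed 2-fold. The simulated noise was the spread within each genotype and replicate pair, so differences between replicate pairs were left out. The knockout test keeps those differences in its error, so the recovery is overstated for genes in which they were large.

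The low values were not spread evenly over the knockout arrays. Knockout 1 was the lowest of the 8 arrays for 17 of the 28 genes, against 25.3% of all probe sets, and knockout 2 was the lowest for 8, against 10.1%. Knockout 4 was the highest array for 14 of the 28, against 9.92%. The median deviation of the 28 genes from the wild-type mean, on the log2 scale, was -0.73 on knockout 1, -0.45 on knockout 2, 0.02 on knockout 3 and 0.42 on knockout 4. On the wild-type arrays it was 0.14, -0.04, 0.18 and -0.21. The median of all tested probe sets lay between -0.06 and 0.02 on every array.

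**Figure D1:**
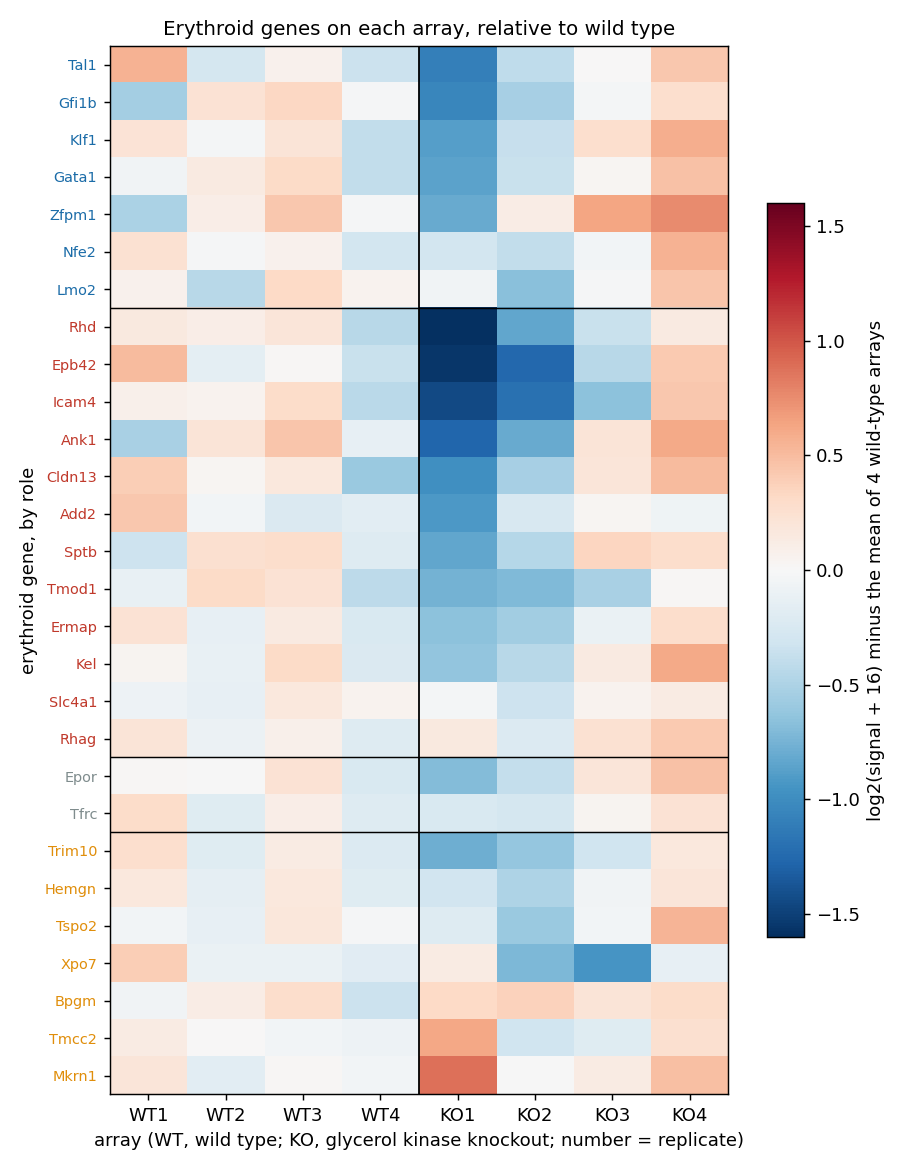
Each row is 1 of the 28 erythroid genes, grouped by role, and each column 1 of the 8 arrays (WT, wild type; KO, glycerol kinase knockout). Colour gives log2(signal + 16) minus the mean of the 4 wild-type arrays. Knockout 1 is the lowest array for 17 genes, and knockout 4 the highest for 14.

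Among the transcription factors, 6 of 7 had estimates below 0 in the knockout, and the median of the 7 was -0.10. Gfi1b, a repressor needed for red cell and platelet lineages, had signals of 621.9, 1083.5, 1162.0 and 901.0 on wild type 1 to 4. On knockout 1 to 4 its signals were 438.4, 629.7, 897.5 and 1105.3. The lowest array was knockout 1, and knockout 2, 3 and 4 lay within the wild-type range. The log2 difference was -0.33 (SE 0.29, limma adjusted p = 0.639).

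Tal1 founds the blood lineages and forms a DNA-binding complex with Gata1 and Lmo2 in erythroid cells. Its signals were 6752.5, 3796.1, 4820.0 and 3624.0 in wild type 1 to 4, and 2147.9, 3455.4, 4640.4 and 6229.8 in knockout 1 to 4. The 2 lowest arrays were knockout 1 and 2, and the highest was wild type 1. The difference was -0.26 on the log2 scale (SE 0.31, limma adjusted p = 0.741).

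Zfpm1 encodes FOG1, the cofactor through which GATA1 acts at many of its targets. In wild type 1 to 4 it read 2203.6, 3377.2, 4226.1 and 3100.6, and in knockout 1 to 4 it read 1783.8, 3413.4, 4893.1 and 5320.1. Here knockout 3 and 4 were the 2 highest of the 8 arrays, and knockout 1 the lowest. Its estimate was 0.17 (SE 0.32, limma adjusted p = 0.845).

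Klf1, the factor that opens the adult beta-globin gene and many membrane genes, is added because its values came to notice after the test. Signals were 4943.3, 4168.2, 4894.6 and 3234.4 in wild type 1 to 4, and 2305.6, 3292.4, 5107.8 and 6366.2 in knockout 1 to 4. Means were 4310 ± 800 in wild type and 4268 ± 1818 in knockout (SD, n = 4), so the group means nearly coincided while knockout 1 and knockout 4 marked the lowest and highest array. Gata1, the central GATA factor of red cell formation, spanned 1342.2 to 3380.2 and also had its lowest array in knockout 1 and its highest in knockout 4. Nfe2, a subunit of the NF-E2 factor that acts at the globin genes, spanned 2459.7 to 4763.1, and Lmo2, the bridging protein of the Tal1 complex, 3211.1 to 6944.6. Both had their lowest array in knockout 2 and their highest in knockout 4.

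Of the 2 receptors, neither passed the test. Epor, the erythropoietin receptor, read 1709.3, 1680.7, 1988.4 and 1417.1 in wild type 1 to 4. In knockout 1 to 4 it read 1036.4, 1287.5, 1932.4 and 2344.6. Knockout 1 and 2 were its lowest arrays and knockout 4 its highest, and the group difference was -0.10 (SE 0.24, limma adjusted p = 0.884).

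Tfrc, the transferrin receptor that brings iron into erythroblasts and dividing cells, had signals of 14991.2, 10696.0, 13229.3 and 10622.5 in wild type 1 to 4. In knockout 1 to 4 the signals were 10385.0, 10067.2, 12623.7 and 14364.0. Knockout 1 and 2 were again lowest, within 1.49-fold of the highest array. The difference was -0.06 (SE 0.15, limma adjusted p = 0.890).

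Among the membrane and skeleton genes, 11 of 12 estimates were below 0, and the median of the 12 was -0.28. Tmod1, tropomodulin, caps the slow-growing ends of the short actin filaments in the red cell skeleton, and muscle and other cells use it too. It was the dimmest of the 28 probe sets, at 853.6, 1148.4, 1088.4 and 686.7 in wild type 1 to 4, and 540.3, 561.9, 640.2 and 940.7 in knockout 1 to 4. Knockout 1, 2 and 3 lay below every wild-type array, and knockout 4 lay among them. Means were 944 ± 214 in wild type and 671 ± 185 in knockout (SD, n = 4), a log2 difference of -0.49 (SE 0.22, limma unadjusted p = 0.0457, adjusted p = 0.336).

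Rhd, a carrier of the Rh blood group in the red cell membrane, read 7038.6, 6798.8, 7213.3 and 4637.3 in wild type 1 to 4. In knockout 1 to 4 it read 2090.5, 3551.1, 4938.7 and 6993.7. Wild type 4 was far below the other 3 wild-type arrays, and knockout 4 was close to those 3. The log2 difference was -0.66 (SE 0.31, limma adjusted p = 0.372).

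Ank1, ankyrin, ties the spectrin skeleton to band 3. Wild type 1 to 4 gave 1411.1, 2336.0, 2769.1 and 1858.9, and knockout 1 to 4 gave 831.3, 1154.8, 2345.3 and 3108.9. The 2 lowest arrays were knockout 1 and 2 and the highest was knockout 4, with a group difference of -0.31 (SE 0.38, limma adjusted p = 0.752).

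Slc4a1, band 3, exchanges chloride for bicarbonate and anchors the skeleton, and its probe set was the brightest of the 28. Signals were 15843.3, 15391.8, 18844.9 and 17464.8 in wild type 1 to 4, and 16424.1, 13432.2, 17436.8 and 18442.7 in knockout 1 to 4. Knockout 1 stood above wild type 1 and 2, knockout 2 was the lowest array, and the difference was -0.04 (SE 0.12, limma adjusted p = 0.901).

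Epb42, protein 4.2, which links band 3 to ankyrin, and Icam4, an adhesion protein of erythroblasts that binds macrophages, were picked after their values were seen for their large estimates. Epb42 read 2229.1, 1398.5, 1586.4 and 1217.4 in wild type 1 to 4, and 521.7, 646.5, 1147.2 and 2092.5 in knockout 1 to 4, a difference of -0.71 (SE 0.38, limma adjusted p = 0.426). Icam4 read 1490.8, 1472.7, 1737.1 and 1038.2, and then 508.5, 606.7, 892.4 and 1903.3, a difference of -0.72 (SE 0.35, limma adjusted p = 0.387). In both, knockout 1, 2 and 3 lay below every wild-type array, and knockout 4 lay above at least 3 of the 4. Rhag, the ammonia channel of the Rh complex, was the exception of the class with an estimate of 0.15 and signals from 5393.7 to 8444.6. Estimates for Sptb (beta spectrin), Add2 (beta adducin, which caps the fast-growing ends of actin filaments), Kel (the Kell blood group protein), Ermap (the Scianna blood group protein) and Cldn13 (a claudin found in mouse erythroid cells) ran from -0.31 to -0.08.

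Late red cell genes were mixed: 4 of the 7 measured had estimates below 0 and 3 above, with a median of -0.07. Mkrn1, a ubiquitin ligase that many tissues express, read 7852.4, 6120.9, 6964.7 and 6689.2 in wild type 1 to 4, and 12649.8, 6821.8, 7542.5 and 9617.6 in knockout 1 to 4. Knockout 1, the array on which 17 genes were lowest, was here the highest, as for 19.9% of all probe sets. The log2 difference was 0.37 (SE 0.18, limma adjusted p = 0.388), and all 6 of its tested probe sets had estimates above 0, from 0.29 to 0.57. Tmcc2, a transmembrane coiled-coil protein abundant in maturing red cells, was also highest on knockout 1, at 18859.1 against 9896.5 to 14668.4 on the other 7 arrays.

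Bpgm makes the bisphosphoglycerate that lowers the oxygen affinity of hemoglobin. Signals were 2078.3, 2355.0, 2641.9 and 1694.7 in wild type 1 to 4, and 2697.1, 2810.7, 2489.5 and 2648.8 in knockout 1 to 4. Knockout 1, 2 and 4 lay above every wild-type array and knockout 3 among them, with a difference of 0.30 (SE 0.15, limma adjusted p = 0.407).

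Tspo2, an erythroid relative of the translocator protein that takes part in cholesterol handling, read 1226.4, 1148.9, 1434.2 and 1243.9 in wild type 1 to 4. It read 1089.7, 827.6, 1226.2 and 1844.8 in knockout 1 to 4. The groups overlapped, with knockout 4 highest and knockout 2 lowest, and the difference was -0.07 (SE 0.22, limma adjusted p = 0.912).

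Hemgn, hemogen, a nuclear protein of blood precursors, read 12616.0, 10196.7, 12638.7 and 9856.3 in wild type 1 to 4, and 9103.3, 7953.4, 10835.6 and 12827.3 in knockout 1 to 4. Knockout 1 and 2 were its lowest arrays and knockout 4 its highest, with a difference of -0.17 (SE 0.16, limma adjusted p = 0.675). Trim10, a protein needed for terminal red cell differentiation, had an estimate of -0.39 and signals from 2306.7 to 4798.0. Xpo7, a nuclear exporter implicated in nuclear condensation of erythroblasts, had an estimate of -0.41 and signals from 4519.8 to 11438.3, with its lowest array in knockout 3.

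The second comparison set replicates 3 and 4 against 1 and 2, with genotype in the model. None of the 28 genes passed the test, against 2.47% of all probe sets (limma, Benjamini-Hochberg adjusted p under 0.05). At an unadjusted p under 0.05 there were 8 genes (Gfi1b, Lmo2, Zfpm1, Slc4a1, Ank1, Sptb, Kel and Tspo2), all higher in replicates 3 and 4, against 12.4% of all probe sets in that direction. Estimates were above 0 for 24 of 28 genes, against 53.4% of all, and the 4 below 0, against 46.6%, were the late genes Bpgm, Tmcc2, Mkrn1 and Xpo7. The median of the 28 was 0.35, against 0.02 over all probe sets.

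By role, median differences between replicates 3-4 and 1-2 were 0.43 for the factors, 0.38 for the membrane genes, 0.29 for the receptors and -0.07 for the late genes. The late median is that of 7 genes. In the list of other late genes read further below, 20 were tested and the median was 0.18. The smallest p belonged to Ank1, at 1433 ± 647 in replicates 1 and 2 and 2521 ± 541 in replicates 3 and 4 (SD, n = 4; log2 difference 0.88, SE 0.27, limma adjusted p = 0.115). Zfpm1 followed with a difference of 0.72 (SE 0.24, limma adjusted p = 0.133) and Gfi1b with 0.61 (SE 0.22, limma adjusted p = 0.161). Slc4a1 was the 1 gene of the 28 whose arrays did not overlap, against 7.03% of all probe sets in that direction. Its 4 arrays of replicates 1 and 2 read 13432.2 to 16424.1 and those of replicates 3 and 4 read 17436.8 to 18844.9 (log2 difference 0.24, SE 0.09, limma adjusted p = 0.185). Estimates were 0.43 for Epor (limma adjusted p = 0.263), 0.41 for Tspo2 (limma adjusted p = 0.225), 0.22 for Hemgn (limma adjusted p = 0.411) and 0.15 for Tfrc (limma adjusted p = 0.593).

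The replicate difference was also taken within each genotype. Among the knockout arrays, replicates 3 and 4 were both above replicates 1 and 2 for 24 of 28 genes, against 32.3% of all probe sets, with a median difference of 0.67. Bpgm was the 1 gene in which they were both below, against 26.5% of all. Among the wild-type arrays, 2 genes (Slc4a1 and Tspo2) were higher without overlap, against 21.6% of all, 3 genes (Add2, Tmcc2 and Xpo7) were lower, against 19.8%, and the median was -0.09.

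Read the other way, the knockout difference was taken within each pair of replicate numbers. In replicates 1 and 2, both knockout arrays lay below both wild-type arrays for 19 of 28 genes, against 27.2% of all probe sets, and above both for Bpgm alone, against 21.4%. Estimates were below 0 for 25 genes, against 54.8% of all, and the median difference was -0.58. In replicates 3 and 4 no gene was lower without overlap, against 24.0% of all, 7 genes (Klf1, Zfpm1, Sptb, Add2, Rhag, Cldn13 and Mkrn1) were higher, against 23.2%. There, estimates were above 0 for 22 genes, against 49.9% of all, and the median was 0.18. No gene passed the test within either pair (limma, 0.147% of all probe sets in replicates 1 and 2, and 0.00981% in 3 and 4). At an unadjusted p under 0.05 there were 13 genes in replicates 1 and 2, against 15.8% of all probe sets, and 3 in replicates 3 and 4, against 14.4%.

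**Figure D2:**
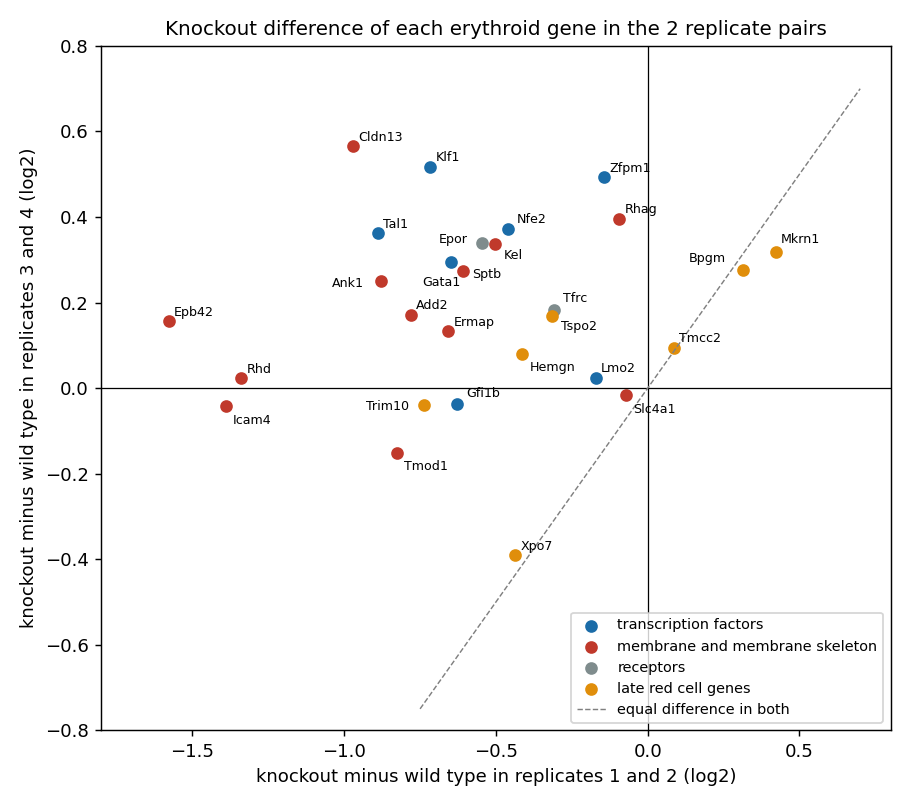
Each point is 1 of the 28 erythroid genes, coloured by role. The horizontal axis gives the knockout minus wild-type log2 difference in replicates 1 and 2, the vertical axis the same in replicates 3 and 4, and the dashed line marks equal differences. Of the 28 genes, 25 lie left of 0 and 22 above 0. The late genes Bpgm, Mkrn1, Tmcc2 and Xpo7 lie near the dashed line, as does the membrane gene Slc4a1. The late genes Trim10, Hemgn and Tspo2 lie above it. Each point is the brightest probe set of its gene. Other tested probe sets of Slc4a1 and Xpo7, not drawn, had larger differences between the pairs.

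Whether the knockout difference itself differed between the replicate pairs was tested with an interaction term. None of the 28 genes passed, against 0.00981% of all probe sets (limma, Benjamini-Hochberg adjusted p under 0.05). At an unadjusted p under 0.05 there were 14 of 28 genes, all with the higher knockout difference in replicates 3 and 4, against 5.96% of all probe sets in that direction. The median of the 28 was 0.74, against 0.03 over all. Estimates were above 0 for 26 genes, against 52.6% of all, and below 0 for Bpgm and Mkrn1, against 47.4%.

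By role, the medians of this estimate were 0.83 for the factors, 0.92 for the membrane genes, 0.69 for the receptors and 0.05 for the late genes. The low late median belongs to the 7 late genes measured here. For the 20 tested genes of the other late list it was 0.51. Genes named here were picked after their values were seen. Cldn13 had an estimate of 1.54 (SE 0.39, limma adjusted p = 0.484), from -0.97 in replicates 1 and 2 to 0.57 in replicates 3 and 4. Epb42 had an estimate of 1.73 (SE 0.45, limma adjusted p = 0.484) and went from -1.58 to 0.16. For Klf1 the estimate was 1.23 (SE 0.35, limma adjusted p = 0.484). For Mkrn1 it was -0.10 (SE 0.38), for Tmcc2 0.01 (SE 0.38) and for Slc4a1 0.06 (SE 0.19). These are values of the brightest probe sets. Over all tested probe sets of a gene, the estimate ran from -0.10 to 0.34 for Mkrn1 and from 0.01 to 0.03 for Tmcc2. For Slc4a1 it ran from 0.06 to 1.88, and for Xpo7 from 0.05 to 0.96. The median half-width of the 95% interval was 0.82 here, and in simulated data 1% of probe sets with a 2-fold difference of differences were recovered, against 84.5% at 4-fold.

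Different probe sets of 1 gene did not give the same spread. Slc4a1 had 2 bright probe sets that spanned 1.40-fold and 1.64-fold over the 8 arrays. The remaining one was dim, with a mean signal of 1648, and read 929.9, 1073.3, 2330.2 and 2024.1 in wild type 1 to 4, and 198.8, 608.5, 2176.5 and 3842.5 in knockout 1 to 4. It spanned 19.3-fold, and it was the 1 probe set among all 50 tested for the 28 genes that passed a test, between replicates 3-4 and 1-2 (log2 difference 2.05, limma adjusted p = 0.0393). Over all probe sets 2.47% passed in that comparison, so 1 of 50 is near the background.

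Tfrc showed the same contrast between its probe sets. The brightest spanned 1.49-fold, the next 3.63-fold and the dimmest 7.16-fold. The middle one read 7240.5, 4413.5, 6733.1 and 4816.0 in wild type 1 to 4, and 2576.1, 3661.6, 7529.0 and 9361.4 in knockout 1 to 4. The 3' transferrin receptor control on the array, which is not among the tested probe sets, ran from 984.5 on knockout 1 to 4527.6 on knockout 4. Of the 10 genes with more than 1 tested probe set, the brightest had the narrowest spread in 5. No gene had tested probe sets of both signs between knockout and wild type. The second probe set of Epb42 had a knockout estimate of -0.51, beside -0.71 for the first.

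**Figure D3:**
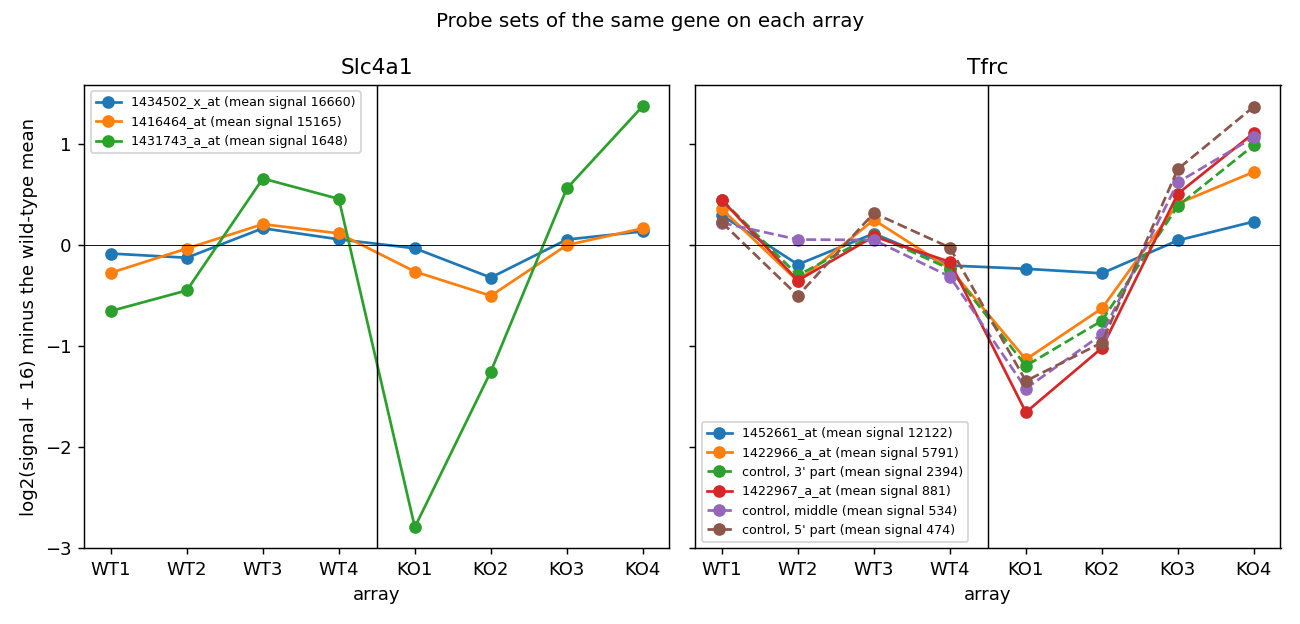
Each point is log2(signal + 16) minus the wild-type mean for 1 probe set of Slc4a1 (left) or Tfrc (right) on 1 of the 8 arrays; lines join the values of 1 probe set, dashed for the controls. The bright Slc4a1 probe sets span 1.40-fold and 1.64-fold and the dim one 19.3-fold. Those of Tfrc span 1.49-fold, 3.63-fold and 7.16-fold.

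Other genes of the erythroid programme were read from 6 further lists, and none passed the test between knockout and wild type, against 0.299% of all probe sets. Counts of estimates below 0 in these lists stand beside 54.2% of all probe sets. Of the heme synthesis list, 10 of 11 genes were tested and 9 had estimates below 0, with a median of -0.15. Alad, the second enzyme of the pathway, had the smallest p, at 4854 ± 917 in wild type and 2915 ± 1416 in knockout (SD, n = 4; log2 difference -0.86, limma adjusted p = 0.272), followed by Urod at -0.23. Of the other membrane genes, 14 of 17 were tested, with 7 estimates on each side of 0. Aqp1, a water channel of red cells and of vessel lining, was at 6041 ± 812 in wild type and 4234 ± 862 in knockout (SD, n = 4; -0.52, limma adjusted p = 0.187), and Add1, alpha adducin, was at -0.40.

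In erythropoietin signalling, 7 of 10 genes were tested and the median was -0.19. Socs3, a feedback inhibitor of cytokine receptors that hepatocytes and macrophages express too, was at 514 ± 118 in wild type and 913 ± 289 in knockout (SD, n = 4; 0.78, limma adjusted p = 0.181), and Stat5b was at -0.35. All 14 partners of the erythroid factors were tested, 8 of them below 0, against 54.2% of all probe sets. Zbtb7a at 0.29 and Cbfa2t3 at -0.31 had the smallest p. Of 21 other late genes 20 were tested, 11 of them below 0, against the same 54.2%. Car1, carbonic anhydrase of the red cell, was at 1638 ± 896 in wild type and 2805 ± 490 in knockout (SD, n = 4; 0.94, limma adjusted p = 0.278), and Nxn was at -0.44. Of 9 globin genes, 6 had a probe set of their own, and of these 5 were under the signal minimum and 1 was tested. This was Hbb-b2, at -0.40 (SE 0.31, limma adjusted p = 0.599). Its signal was 7139.2 on wild type 1, 2712.6 to 2942.4 on the other wild-type arrays and 1934.5 to 3393.1 in knockout. Probe sets paired with several globin genes were not used here.

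Markers of other cells and of cell division were read on the same arrays. Of 25 cell division genes, 23 were tested and all 23 had estimates below 0 in the knockout, against 54.2% of all probe sets. In the limma test 0 passed, against 0.299% of all, and 7 had an unadjusted p under 0.05, against 7.32% of all probe sets in that direction. Their median deviation was -1.28 on knockout 1, -0.53 on knockout 2, -0.19 on knockout 3 and 0.09 on knockout 4, in the same order as that of the erythroid genes. The summed signal of the 24 measured cell division genes ran from 84292 to 114033 in wild type and from 43176 to 101456 in knockout. The summed signal of 9 of 12 hepatocyte genes ran from 157905 to 199850 in wild type and from 179433 to 244682 in knockout, with the highest value on knockout 1. Macrophage genes, 13 of 15 tested, had a median deviation of 0.53 on knockout 1 and between -0.22 and 0.18 on the other arrays. Megakaryocyte genes, 10 of 13 tested, share several of the factors above, and the 11 measured summed to 15615 to 21820 in wild type and 15333 to 17900 in knockout.

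The part of the cell division, hepatocyte and macrophage markers in the erythroid values was not tested. With the pyruvate carboxylase ratio as a covariate, the median difference of the 28 genes between knockout and wild type was 0.03, and that between replicates 3-4 and 1-2 was -0.12. That ratio was highest on knockout 1 and 2, so its part cannot be told apart from what else marked those arrays. Over all probe sets, calls with this covariate were 72 between knockout and wild type, against 61 without it. Between replicates 3-4 and 1-2 they were 0, against 503. Without the array labelled wild type 4, none of the 28 genes passed in any of the 3 comparisons.

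**Figure D4:**
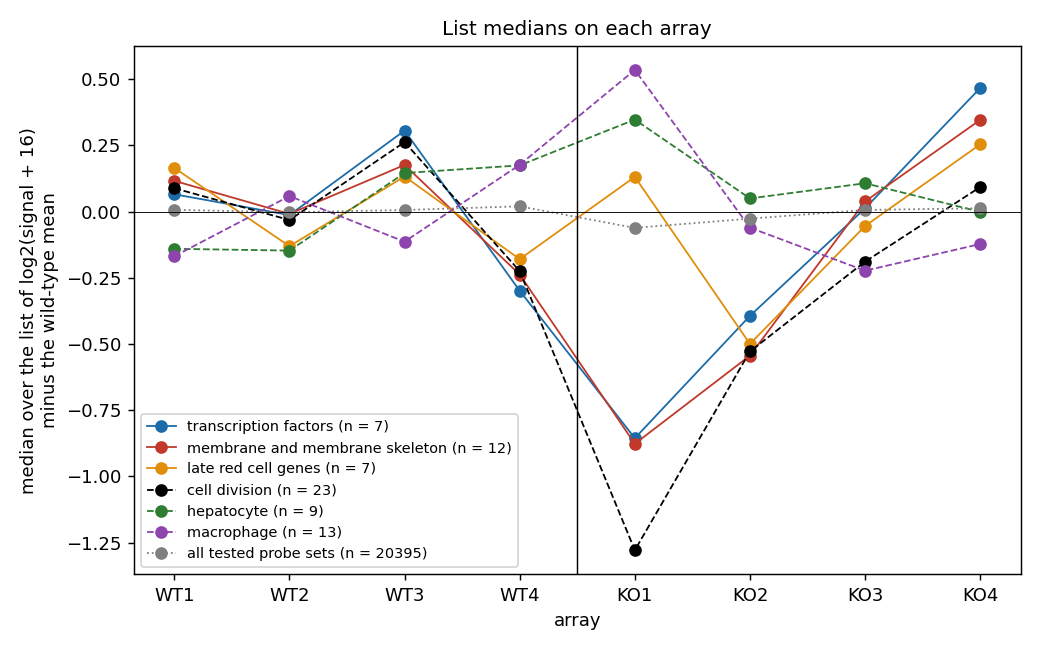
Median over each gene list of log2(signal + 16) minus the wild-type mean, on each of the 8 arrays; lines join the values of 1 list. Cell division genes lie at -1.28 and membrane genes at -0.88 on knockout 1, where late red cell genes lie at 0.13 and hepatocyte genes at 0.35. The late red cell line is the median of 7 genes that ran from -0.78 (Trim10) to 0.88 (Mkrn1) on knockout 1. The 20 tested genes of the other late list, not drawn, had a median of -0.32 there.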

How the data were processed

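Signal intensity values were made by the authors with GCOS 1.2 at default settings and scaled to a target of 500, per the labels; the deposited values had a trimmed mean of 500.0 on every array, and the array image files were not used here. Symbols came from the platform annotation: of 45101 probe sets, 34945 are paired with 1 gene, 932 with several and 9160 with none. Control probe sets (64) and probe sets under 200 on more than 4 of the 8 arrays were left out, leaving 20395. Differences are on the scale of log2(signal + 16), which understates those of dim genes. limma 3.58.1 in R 4.3.3 (lmFit, eBayes with intensity trend, two-sided) was fitted to the whole table, with Benjamini-Hochberg adjustment over all 20395, and was tested on simulated data. The comparisons of genotypes and of replicate pairs used all 8 arrays, 4 per group; differences within a replicate pair or a genotype, and the interaction, rest on 2 arrays per group.

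The erythroid genes, the other lists and the tests were chosen with earlier results of these data known. Signals on all 8 arrays are given for the genes with the 2 smallest p in each role class in the knockout and replicate comparisons, and for the brightest and dimmest gene; other genes with all 8 signals are named as chosen later. From each other list the 2 genes with the smallest p are named. Arrays with the same replicate number in the 2 groups deviated from their group means with correlations of 0.22, 0.40, 0.34 and 0.051 over probe sets, so the numbers were not taken as pairs. Each array is 1 animal. Promoter sequences are RefSeq's. Alternatives covered the pseudocount, signal minimum, scaling, limma settings, probe set choice, left-out arrays, blocks and covariates.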

Additional observations from a re-analysis of the deposited data

Results flagged for a closer look

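Of 56 groups of 4 arrays (28 genes in wild type and in knockout), 2 held an array far from the other 3; chance flags about 1 in 20 groups. Rhd, the Rh blood group protein, was at 4637.3 on wild type 4, against 6798.8 to 7213.3 on the other wild-type arrays. That array is the one whose Xist signal went against its label. Xpo7, the nuclear exporter, was at 11438.3 on wild type 1, against 7688.5 to 8104.6 on the other wild-type arrays.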

How the results depend on the processing

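In the knockout comparison 0 genes passed, and leaving out 1 array at a time gave 0 to 1. The 1 was Icam4 without knockout replicate 4 (log2 difference -1.10), where calls over all probe sets were 334, against 61 with all arrays. The median stayed between -0.32 and -0.02 with 1 array left out, and was -0.58 in replicates 1 and 2 alone and 0.18 in replicates 3 and 4 alone. With the replicate number as a block, which the labels do not explain as a pairing, 0 genes passed and the median was -0.17; wild type 1 and 2 correlated best with their own number, 3 and 4 with the other's. In replicates 3 and 4 alone the sign turned for 17 genes; of those, 5 had a reported estimate larger than its SE, namely Add2 (0.17), Epb42 (0.16), Ermap (0.13), Hemgn (0.079) and Rhd (0.023). Between replicates 3-4 and 1-2, 0 genes passed, and 0 to 2 with 1 array left out; the 2 were Gfi1b (0.82) and Ank1 (1.14) without wild type replicate 2, where calls over all probe sets were 740, against 503 with all arrays. The median was then 0.16 to 0.52. With the probe set of highest variance, or with every probe set, 1 gene passed, Slc4a1 (2.05); with every probe set Xpo7 turned to 0.18. In wild type alone the median was -0.090 and 16 signs turned, 12 of them from estimates larger than their SE: Cldn13 at -0.43, Epb42 -0.34, Tal1 -0.28, Rhd -0.26, Klf1 -0.19, Icam4 -0.14, Ermap -0.097, Tfrc -0.095, Gata1 -0.085, Trim10 -0.081, Hemgn -0.023 and Epor -0.014. With the pyruvate carboxylase ratio as covariate it was -0.12 and 22 signs turned, 17 of them from estimates larger than their SE: Cldn13 at -0.66, Rhd -0.65, Epb42 -0.52, Tal1 -0.45, Klf1 -0.43, Gata1 -0.38, Icam4 -0.36, Sptb -0.29, Epor -0.20, Ank1 -0.13, Ermap -0.13, Gfi1b -0.10, Zfpm1 -0.099, Trim10 -0.10, Kel -0.030, Tfrc -0.013 and Xpo7 at 0.096. Calls over all probe sets in that comparison were 0 with this covariate, against 503 without it. The ratio was highest on knockout 1 and 2 and cannot be told apart from what else marked those arrays. The cause was not tested. The difference of differences gave 0 calls in all 19 alternatives, with a median of 0.55 to 0.95 when 1 array was left out. Counting AGATAA and TGATAA only, 48.1% of promoters held a match (18.6% of all promoters), against 96.3% with CCNCNCCC added (62.3% of all). Of 1867 single-gene values under alternatives, 1730 kept their direction and side of the threshold, 98 changed sign with an estimate within its SE of 0, 35 changed sign with a larger one, and 4 passed newly. Over all probe sets, calls between knockout and wild type ran from 2 to 334 with 1 array left out, against 61, and those between replicates 3-4 and 1-2 from 105 to 740, against 503.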

Other observations

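Genes of other red cell lists, picked after their values were seen, are given here as values. Xk, a red cell membrane transporter protein, read 439.0, 324.8, 388.8 and 341.3 in wild type 1 to 4, and 243.8, 261.3, 696.2 and 906.4 in knockout 1 to 4. Knockout 1 and 2 were below and knockout 3 and 4 above every wild-type array, and the difference of differences was 1.64 (SE 0.31, limma adjusted p = 0.484). Car1 read 2575.9, 2199.2, 1096.8 and 678.1 in wild type 1 to 4, and 2247.1, 3262.9, 3167.4 and 2543.1 in knockout 1 to 4. Its wild-type arrays of replicates 3 and 4 were the 2 lowest of the 8. Alas2, the first enzyme of heme synthesis in red cells, read 7492.4 to 11900.8, with its highest array in wild type 3 and its lowest in knockout 3.

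The remaining marker lists are given as summed signals of their measured genes, including genes under the signal minimum. All 12 measured granulocyte and all 12 endothelial genes passed that minimum. So did 5 of 8 B lymphoid genes and 4 of 9 mast cell and basophil genes. Of the stem and progenitor genes 6 of 8 passed, and of the T and natural killer genes 2 of 7. Granulocyte genes summed to 81702 to 102451 in wild type and 70192 to 96661 in knockout. Endothelial genes summed to 11400 to 16406 and 12307 to 19070, and B lymphoid genes to 1736 to 3815 and 941 to 2781. Mast cell and basophil genes summed to 1647 to 2122 and 1760 to 2315. Stem and progenitor genes summed to 3726 to 3918 and 3033 to 3932. T and natural killer genes summed to 1182 to 1448 and 884 to 1324. The wild-type and knockout ranges overlapped in each of these 6 lists.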
